A study of Gallus gallus with 6 samples.

Results

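The genes described here are the cytokines, chemokines and growth factors of the pathway term gga04060 (cytokine-cytokine receptor interaction), together with their receptors, in 2 muscles of the chicken. They were taken from the term itself, which 174 of the 18239 genes of the deposited table carry. A set of 12 genes was removed by name, and 8 of these carried the term: MSTN, GDF11, INHBA, ACVR2A, ACVR2B, ACVR1B and TGFBR1, of the myostatin and activin group, and CSF1R, a macrophage receptor. The 166 members left comprise 72 ligands, 93 receptors and LOC100857191, for which the table gives no name.

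The study compared soleus, a leg muscle, with pectoralis major, the breast muscle, by RNA sequencing of broilers aged 180 days, with 3 libraries per muscle. The labels name no treatment, and soleus was set against pectoralis major to look at differences between muscles of unlike fibre type. Nothing in the labels shows separate birds or pools behind the libraries of each muscle, so the p-values reflect how far these libraries spread, and that spread may be technical. Values are FPKM (fragments scaled to gene length and library size), as the authors deposited them.

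Cytokines are secreted or membrane-bound proteins that carry signals between cells, and each acts through a small set of receptor chains. Chemokines guide moving cells through receptors with a serpentine fold. Haematopoietin receptors and many interleukin receptors, but not those of the interleukin 1 and 17 families, signal through JAK kinases and STAT proteins. TGF-beta receptors signal through SMAD proteins, and TNF receptors through adaptor proteins to NF-kappaB or cell death. In muscle these signals come from fibres, resident leukocytes, vessels, fat cells and fibroblasts, and act on growth, repair and inflammation. Roles given below for single members are those known in mammals, chiefly mouse and human.

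The libraries held 36309597 to 39079981 fragments, so that for a gene 1 kilobase long each fragment added 0.0256 to 0.0275 FPKM. Contractile genes matched the muscle labels. MYH7B, TNNI1 and MYL3, of slow fibres, stood at 523 FPKM or more in every soleus library and at 2.5 FPKM or less in every pectoralis major library, whereas fast MYH1E stood at 4750 FPKM or more in pectoralis major and at 7.73 FPKM or less in soleus. Genes encoded in the mitochondrial genome took 31.4% to 38% of all FPKM in soleus and 13.1% to 15.8% in pectoralis major, which lowers the FPKM of every other gene in soleus.

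Markers of other cell types were counted in the same way, beside 40.0% of all genes tested that were called higher in soleus (the test is given below). Of the tested markers, 10 of 10 endothelial, 6 of 6 adipocyte, 5 of 5 smooth muscle and pericyte, 5 of 5 Schwann cell and 10 of 14 leukocyte genes were called higher. Of the fibroblast markers 4 of 8 were, a share near that of all genes, and COL1A1 and COL3A1 did not pass (-0.22 and -0.27). Summed leukocyte markers came to 1186 to 1451 FPKM in soleus and 639 to 891 FPKM in pectoralis major. CD74 alone held most of these sums (880 to 985 FPKM and 474 to 589 FPKM), whereas PTPRC was at 5.27 to 7.19 FPKM and 2.55 to 4.49 FPKM. Summed adipocyte markers came to 338 to 418 FPKM in soleus and 88.3 to 92.4 FPKM in pectoralis major. Summed endothelial markers were 211 to 252 FPKM against 112 to 128 FPKM. The 4 tested T-cell markers did not pass (limma adjusted p between 0.174 for CD8A and 0.485 for CD3D), with sums of 34.8 to 39.9 FPKM against 23.8 to 41.2 FPKM. No defining marker of these 7 lists was at 0 in all libraries. All these marker calls are on FPKM as deposited. They were not counted with median-ratio scaling, given below, with which 20.6% of all genes tested were called higher. In bulk tissue, fewer cells of a type and less RNA per cell cannot be told apart, and the part of cell-type makeup in the differences below was not tested.

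Most members were low. The mean over the 6 libraries was at least 10 FPKM for 13 members, 1 to 10 FPKM for 55, 0.1 to 1 FPKM for 59 and under 0.1 FPKM for 39. The 10 highest members held 43.5% of the summed member FPKM, led by TGFB3 at 48.3 FPKM, followed by IFNGR2 at 29.8, IL17RC at 21.6, IL34 at 18.8 and IFNGR1 at 14.4 FPKM. As deposited, the summed FPKM of all members was 528 to 562 in soleus and 349 to 393 in pectoralis major, so that the muscles did not overlap. Median-ratio scaling, given below, divides by 1.116 to 1.202 in soleus and by 0.8196 to 0.9094 in pectoralis major. With it, the sum of soleus library 1 falls below that of pectoralis major library 1, so the muscles overlap. Several cytokines of leukocytes were close to absent at this depth. IL6, IL1B, IL10, IFNG, IL12B, IL5, IL9, CSF2 and CSF3 each had at most 4 fragments in any library.

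Of the 166 members, 72 reached 1 FPKM in at least 3 libraries and were tested, by limma on log2(FPKM + 1) with Benjamini-Hochberg adjustment over all 9616 genes tested and a threshold of 0.05. Among them 39 were higher in soleus (54.2%), 6 were lower (8.33%) and 27 did not pass. Over all genes tested, 40.0% were called higher and 17.4% lower, and 57.3% were called in either direction, against 62.5% of the tested members. On the log2(FPKM + 1) scale, 9 members were called at least 2-fold higher and 2 at least 2-fold lower. The shares over all genes were 9.44% and 5.50%. By the ratio of mean FPKM other called members reached 2-fold too, such as CNTF (3.36, soleus over pectoralis major) and GDF3 (2.39, pectoralis major over soleus). The soleus libraries lay wholly above those of pectoralis major for 45 of the 72 tested members (62.5%) and wholly below for 6 (8.33%), against 45.0% and 19.9% of all genes. Members that passed the filter only through soleus had to differ, and 8 tested members had all 3 pectoralis major libraries under 1 FPKM, whereas TNFRSF9 had all 3 soleus libraries under it. The 8 were TNFRSF19, CNTF, CSF2RA, CRCBL, IL1R1, TNFRSF1B, TGFBR2L and LOC395551. Their calls below, and that of TNFRSF9, carry this limit. Differences below subtract pectoralis major from soleus in units of log2(FPKM + 1), which makes changes of low genes look smaller than they are. The fit left out the replicate number. With that number as a block, 45 members were higher and 6 lower, beside 4207 and 1873 of all genes tested.

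The share of higher calls depended on how libraries were scaled. The median difference over all genes was 0.26 as deposited, -0.05 when libraries were scaled by the median ratio of genes, and 0.45 when mitochondrially encoded genes were left out of the totals. As deposited, 86.7% of the member calls were higher, against 69.7% of the calls over all genes. With median-ratio scaling 21 members were called higher and 10 lower (67.7% higher), while 20.6% of all genes tested were higher and 30% lower. With mitochondrially encoded genes left out, 58 members were higher and 5 lower (92.1% higher), beside 52.8% and 11.6% of all genes. Relative to the median of all genes, 52 of 72 members lay above it as deposited, 50 of 70 with median-ratio scaling and 57 of 80 without mitochondrial genes. All 39 members called higher had a difference above 0.26, but this follows from the threshold and adds no support. TGFB1, for example, did not pass at 0.33 (limma adjusted p = 0.0636). No called member changed direction in any of the 13 alternatives in which it was tested.

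**Figure D1:**
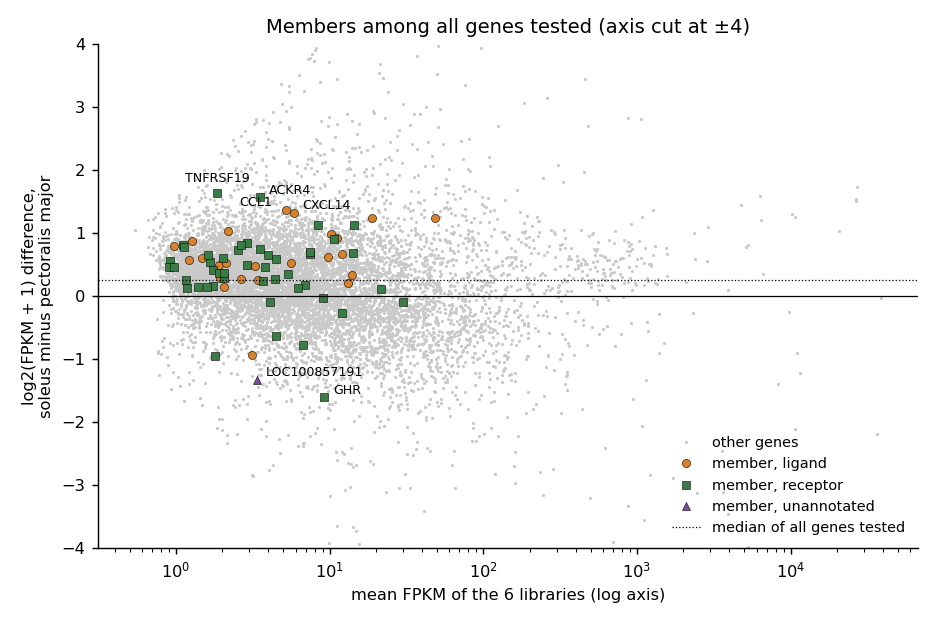
Each point is a gene tested, with its mean FPKM over the 6 libraries on a log axis and its log2(FPKM + 1) difference, soleus minus pectoralis major, on the other; ligands, receptors and the unannotated member are coloured. Of the 72 members, 52 lie above the dotted line, the median of all genes at 0.26, and GHR and LOC100857191 are the lowest; with median-ratio scaling the line lies at -0.05.

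Among the 24 tested ligands, 15 were higher, 1 was lower and 8 did not pass, with a median difference of 0.59. Among the 47 tested receptors, 24 were higher, 4 were lower and 19 did not pass, with a median of 0.46. With median-ratio scaling these medians were 0.29 and 0.15. The filter kept 24 of 72 ligands and 47 of 93 receptors, beside 9616 of all 18239 genes. Of all genes tested, 40.0% were called higher and 17.4% lower. The family counts below stand beside the same shares, and families, each of few tested genes, were not tested as sets.

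**Figure D2:**
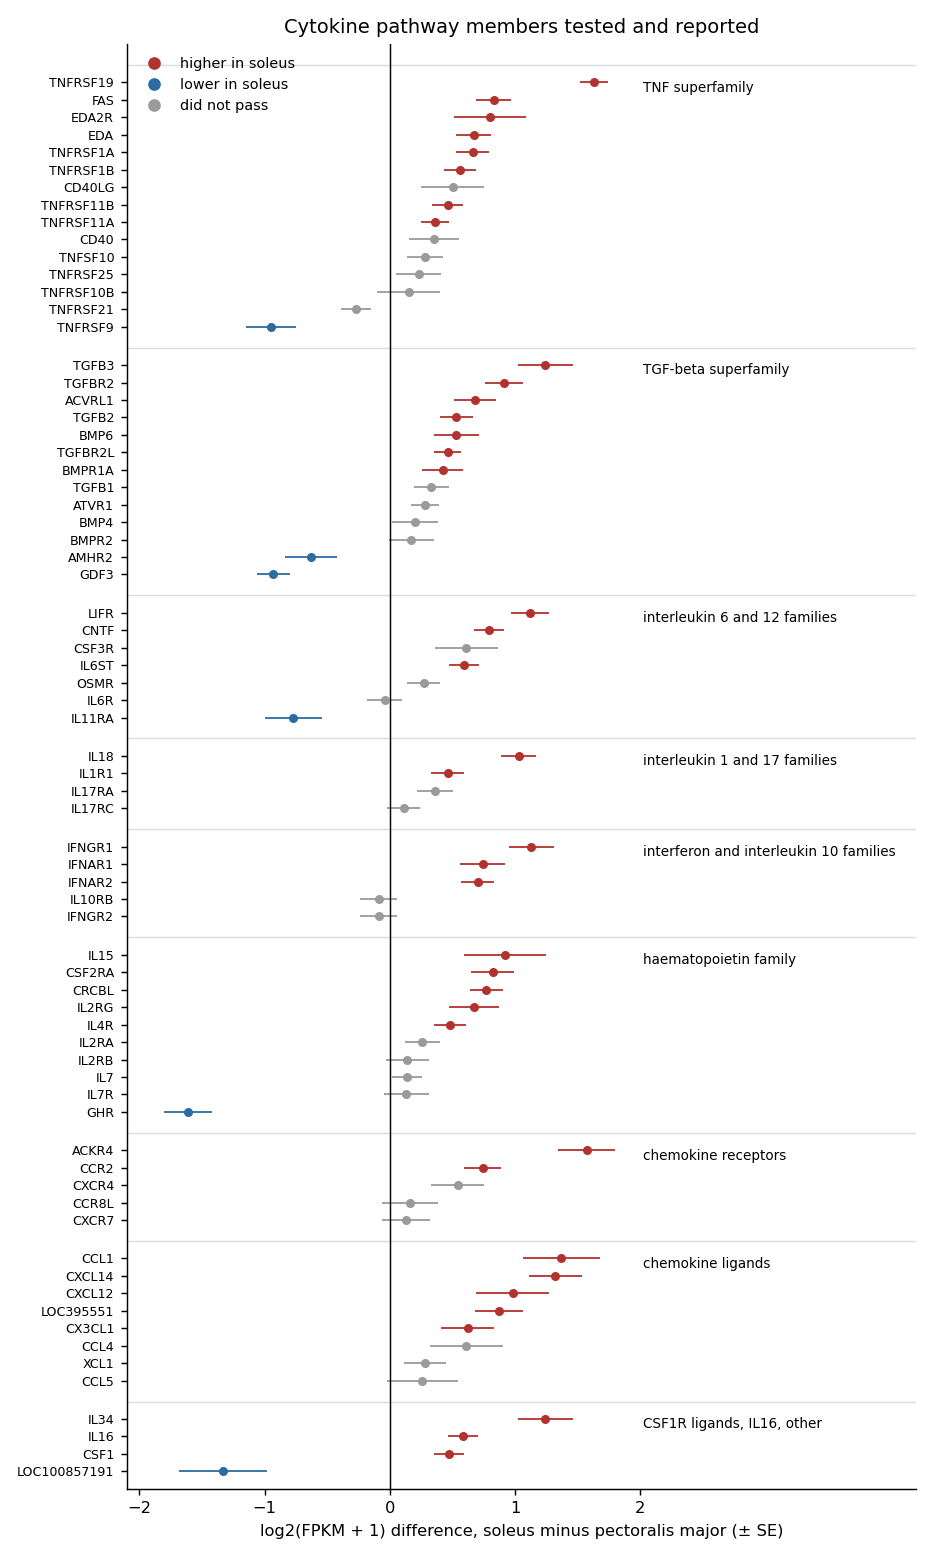
The log2(FPKM + 1) difference, soleus minus pectoralis major, with its standard error, is drawn by family for the tested members reported here. Of all 72 tested, 39 are called higher, 6 lower and 27 do not pass; with median-ratio scaling 21 are higher and 10 lower.

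Chemokine ligands had 5 of 8 tested genes higher, 3 that did not pass, and a median difference of 0.75 (0.51 with median-ratio scaling). CCL1, a ligand of the receptor CCR8, stood at 8.12, 7.3 and 7.97 FPKM in soleus libraries 1 to 3 and at 2.49, 1.04 and 4.51 FPKM in pectoralis major libraries 1 to 3. The soleus values were close together and all above the pectoralis major values, which spread widely. The difference was 1.37 ± 0.31 (SE; limma adjusted p = 0.00539). CXCL14, a chemokine made by epithelia and adipose tissue, had 8.36, 10.4 and 7.37 FPKM in soleus and 3.94, 1.88 and 3.02 FPKM in pectoralis major. Its groups did not overlap either, and it differed by 1.32 ± 0.21 (limma adjusted p = 0.00116). LOC395551, described in the table as CCL4, was higher as well (0.87), but its reads cannot be securely told from those of the gene listed as CCL4 (0.61, limma adjusted p = 0.108), which passed with the replicate number as a block (limma adjusted p = 0.0379). CCL4 rested on single libraries, with 0.92 without pectoralis major library 1 (limma adjusted p = 0.0143), 0.36 without soleus library 3 (0.316) and 0.40 without pectoralis major library 2 (0.297).

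CXCL12, which retains and guides stem cells and leukocytes, was the highest chemokine by the mean over all 6 libraries, although CX3CL1 was above it in pectoralis major (7.34 against 6.56 FPKM). CXCL12 was at 17.9, 14.8 and 8.93 FPKM in soleus and 5.75, 9.44 and 4.5 FPKM in pectoralis major. Soleus library 3 fell below pectoralis major library 2, so the groups overlapped. The call (0.98 ± 0.29, limma adjusted p = 0.0184) was lost on leaving out soleus library 1 (limma adjusted p = 0.0724), soleus library 2 (0.0586) or the third pectoralis major library (0.0617), with median-ratio scaling (0.0958) and with no filter (0.0677). CX3CL1, a membrane-tethered chemokine of endothelium, was called at 0.62 with non-overlapping groups of 9.09 to 16 FPKM and 5.93 to 8.4 FPKM. That call was lost without soleus library 1 or 3 (limma adjusted p = 0.0631 and 0.107, with a difference of 0.41 without library 3), without pectoralis major library 2 or 3 (0.094 and 0.0565), with median-ratio scaling (0.341) and with no filter (0.0842). CCL5 and XCL1, chemokines of T and natural killer cells, did not pass at 0.26 and 0.28. When 1 library was left out, the CCL5 difference ranged from 0.11 without soleus library 3 to 0.54 without soleus library 1. That of XCL1 was lowest, at 0.19, without soleus library 2 or pectoralis major library 1 or 2. It reached 0.44 without pectoralis major library 3 (limma adjusted p = 0.0377). Over all alternatives the lowest values were -0.03 for CCL5, with median-ratio scaling, and -0.00 for XCL1.

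Chemokine receptors had 3 of 6 tested genes higher, and 3 did not pass. ACKR4, a scavenger that removes CCL19, CCL21 and CCL25 without signalling through G proteins, was at 5.29, 4.75 and 7.1 FPKM in soleus and at 1.22, 2.04 and 0.662 FPKM in pectoralis major. No pectoralis major library reached the lowest soleus value, and the ratio of the means was 4.37. The difference was 1.57 ± 0.23 (limma adjusted p = 0.000712), and it was 1.30 with median-ratio scaling. CCR2, a receptor that brings monocytes into tissue, was higher by 0.74 (limma adjusted p = 0.00357), with groups that did not overlap. CXCR7 (ACKR3), a scavenger of CXCL12, was the highest chemokine receptor, at 6.11, 7.4 and 5.93 FPKM in soleus and 4.2, 6.13 and 7.47 FPKM in pectoralis major. These groups overlapped fully and CXCR7 did not pass (0.13, limma adjusted p = 0.574), with a difference of -0.06 without pectoralis major library 1. CXCR4, the signalling receptor of CXCL12, missed the threshold at 0.54 (limma adjusted p = 0.0524) and passed with the replicate block (0.0047), with a pseudocount of 0.1 (0.0491), without mitochondrial genes (0.0188) and when 1 library was left out, be it soleus 2 (0.0453), soleus 3 (0.0482) or pectoralis major 1 (0.0355). Without soleus library 1 the CXCR4 difference was 0.31 (limma adjusted p = 0.139).

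The CSF1 receptor governs macrophage survival and has 2 ligands, IL34 and CSF1, both of which were higher in soleus. IL34 had 19, 31.3 and 30.4 FPKM in soleus and 8.57, 10.4 and 13.2 FPKM in pectoralis major. The lowest soleus library exceeded the highest of pectoralis major, and the difference was 1.24 ± 0.22 (limma adjusted p = 0.00191). CSF1 was lower in level and differed less, at 3.96 ± 0.148 FPKM against 2.58 ± 0.264 FPKM (SD, n = 3 each), a difference of 0.47 (limma adjusted p = 0.0102) that was not called with median-ratio scaling (0.18, adjusted p = 0.212). CSF1R itself, which is outside the member list, was at 17.3 to 19.5 FPKM in soleus and 6.5 to 11.6 FPKM in pectoralis major. It is a macrophage gene and was among the leukocyte markers that were higher. IL16, a chemoattractant of CD4 cells, was higher by 0.58 (limma adjusted p = 0.00384), while its receptor CD4 stayed under the filter at 0.778 FPKM in soleus and 0.675 FPKM in pectoralis major.

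**Figure D3:**
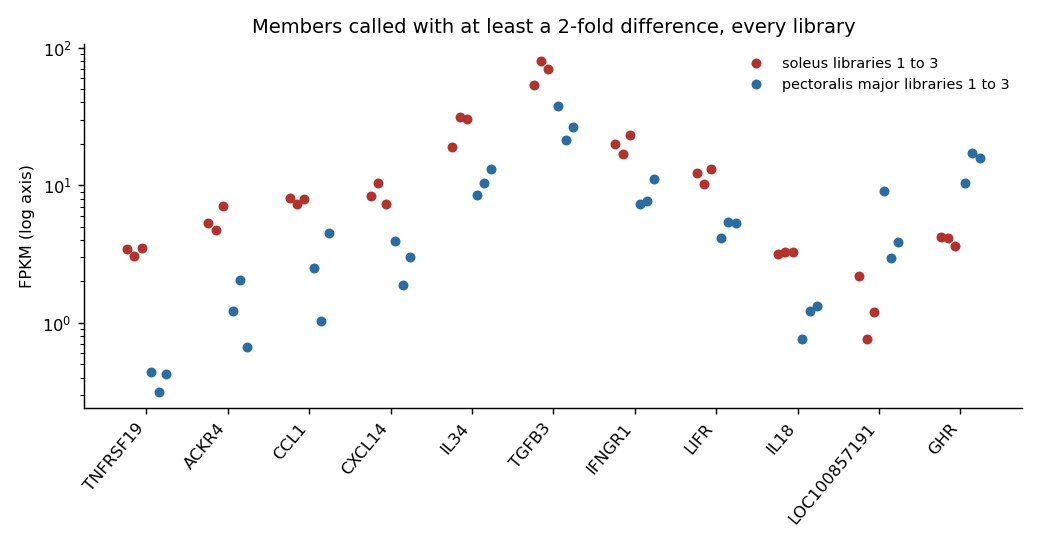
FPKM on a log axis in each library is shown for the 11 members called with at least a 2-fold difference on the log2(FPKM + 1) scale, soleus libraries in red and pectoralis major libraries in blue. For each of the 11 the groups do not overlap. TNFRSF19, which passed the filter only through soleus, lies at 3.05 to 3.49 FPKM there and 0.316 to 0.437 FPKM in pectoralis major. GHR lies the other way.

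In the haematopoietin family, which includes the growth hormone receptor and the common gamma chain receptors, 5 of 10 tested genes were higher, 1 was lower and 4 did not pass. GHR, the receptor of growth hormone, which acts through JAK2 and STAT5, had the lowest difference of the 72 tested members. It stood at 4.19, 4.15 and 3.6 FPKM in soleus and at 10.4, 17.3 and 15.7 FPKM in pectoralis major. Every pectoralis major library was above every soleus library, and the ratio of pectoralis major to soleus means was 3.63. The difference was -1.61 ± 0.19 (limma adjusted p = 0.000231), and it ranged from -1.94 to -1.44 over the 13 alternatives.

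Growth hormone itself was detected mainly in soleus. GH had 109, 61 and 9 fragments in soleus and 0, 1 and 1 in pectoralis major, so the groups did not overlap, but the soleus libraries varied widely. The gene was under both filters and was not tested. Of the genes through which growth hormone signals, JAK2 was higher in soleus by 0.43 (limma adjusted p = 0.0404), STAT5A did not pass (-0.35, limma adjusted p = 0.0576), and CISH, a STAT5 target that restrains the receptor, was higher by 1.67 (limma adjusted p = 0.000113) at 20.1 to 30.9 FPKM against 7.3 to 7.84 FPKM. SOCS2, another feedback gene of growth hormone and STAT5, did not pass (0.06, limma adjusted p = 0.793). The calls of these genes, and of genes downstream of other receptors below, are on FPKM as deposited. They are not given with median-ratio scaling.

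CSF2RA, the ligand-binding chain for GM-CSF, a growth factor of myeloid cells, was higher by 0.82 ± 0.17 (limma adjusted p = 0.00354), and CRCBL, which the table's terms place in the same receptor complex, by 0.77 ± 0.13 (limma adjusted p = 0.00151). The ligand CSF2 had a total of 1 fragment in the 6 libraries. IL15, a cytokine of lymphocytes that muscle fibres also make, was the highest member of the family by the mean over all libraries, although GHR was above it in pectoralis major (14.5 against 7.95 FPKM). IL15 was at 15.9, 14.5 and 12.7 FPKM in soleus and 4.26, 13.8 and 5.8 FPKM in pectoralis major. Pectoralis major library 2 lay within the soleus range and the groups overlapped. The IL15 call (0.92 ± 0.33, limma adjusted p = 0.0411) was lost without soleus library 1, 2 or 3 (limma adjusted p = 0.116, 0.0921 and 0.0609), without pectoralis major library 1 (difference 0.61, adjusted p = 0.121) or 3 (0.115), with median-ratio scaling (0.175) and with no filter (0.122).

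The common gamma chain IL2RG, shared by the receptors of IL2, IL4, IL7, IL15 and IL21, was higher by 0.67 (limma adjusted p = 0.0172), and IL4R, the chain that binds IL4, by 0.48 (limma adjusted p = 0.0126). IL2RG was not called without soleus library 1 or 2 (limma adjusted p = 0.0599 and 0.0519), with median-ratio scaling (0.204) or with no filter (0.0508), and IL4R was not called without soleus library 3 (0.0548) or with median-ratio scaling (0.208). IL7, IL7R, IL2RA and IL2RB, which sustain lymphocytes, did not pass, with differences of 0.14, 0.13, 0.26 and 0.14.

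Among the interferon and interleukin 10 receptors, 3 of 5 tested genes were higher and 2 did not pass. IFNGR1, the chain that binds interferon gamma, had 19.9, 17 and 23.3 FPKM in soleus and 7.26, 7.71 and 11.1 FPKM in pectoralis major. Its groups were well apart, with a difference of 1.13 ± 0.18 (limma adjusted p = 0.00124). IFNGR2, the partner chain that completes the receptor, had 28.9, 23.8 and 34.4 FPKM in soleus and 30.3, 32.6 and 28.9 FPKM in pectoralis major. Here the ranges overlapped and the difference did not pass (-0.09 ± 0.15, limma adjusted p = 0.638). It was called lower with median-ratio scaling (-0.46, adjusted p = 0.0372) and was 0.04 without soleus library 2.

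IFNAR1 and IFNAR2, the chains of the type I interferon receptor, were higher by 0.74 (limma adjusted p = 0.00716) and 0.70 (limma adjusted p = 0.0021). IL10RB, shared by IL10 and lambda interferons, did not pass (-0.09) and was called lower with median-ratio scaling (-0.40, adjusted p = 0.0262). Of genes that interferons induce or act through, IRF1 was higher in soleus by 0.85 (limma adjusted p = 0.00137) and IRF9 by 0.61 (limma adjusted p = 0.0078). STAT2 and IRF7, of the same group, did not pass (0.21 and 0.34). IFNG itself was at most 2 fragments in any library.

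In the interleukin 1 and 17 families, 2 of 4 tested genes were higher. IL18, which induces interferon gamma in lymphocytes and is matured by caspase-1, was at 3.17, 3.28 and 3.29 FPKM in soleus and at 0.76, 1.21 and 1.33 FPKM in pectoralis major. The soleus libraries were nearly equal and all above the pectoralis major libraries. IL18 differed by 1.03 ± 0.14 (limma adjusted p = 0.000454), or by 1.59 in limma's voom on whole fragments. IL1R1, the signalling receptor of IL1, was higher by 0.46 (limma adjusted p = 0.0148), and its ligand IL1B had 6 fragments in all 6 libraries together. IL17RC, a chain of the IL17 receptor and the highest gene of the group, was at 21.8, 22.7 and 22.6 FPKM in soleus and 19, 19.7 and 23.5 FPKM in pectoralis major, so that the ranges overlapped and it did not pass (0.11, limma adjusted p = 0.49). IL17RA missed the threshold at 0.36 (limma adjusted p = 0.0528) and passed with the replicate block (0.0313) and in voom (0.55, adjusted p = 0.0407).

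In the interleukin 6 and 12 families, 3 of 7 tested genes were higher, 1 was lower and 3 did not pass. The higher genes were CNTF, LIFR and IL6ST, parts of the receptor system of ciliary neurotrophic factor, and they were grouped here after their values were seen. LIFR, the receptor chain shared by LIF and CNTF, stood at 12.3, 10.3 and 13.1 FPKM in soleus and at 4.11, 5.37 and 5.32 FPKM in pectoralis major. Its soleus libraries were all above those of pectoralis major, with a difference of 1.12 ± 0.15 (limma adjusted p = 0.000469). CNTF, a factor that keeps motor neurons alive and is made by Schwann cells, was at 1.33 to 1.72 FPKM in soleus and 0.308 to 0.535 FPKM in pectoralis major and differed by 0.79 (limma adjusted p = 0.000755), a value that was 1.57 with a pseudocount of 0.1.

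IL6ST (gp130), the signal-transducing chain of the whole family, was higher by 0.59 (limma adjusted p = 0.00399) but was not called with median-ratio scaling (0.28, adjusted p = 0.0547). IL6R, the chain that binds IL6, was the highest gene of the family by the mean over all libraries, although LIFR was above it in soleus (11.9 against 8.98 FPKM). IL6R was at 10.3, 8.36 and 8.26 FPKM in soleus and 10.1, 8.13 and 9.42 FPKM in pectoralis major. The ranges overlapped and the difference did not pass (-0.04, limma adjusted p = 0.841); it was called lower with median-ratio scaling (-0.39, adjusted p = 0.0473) and was 0.01 to 0.03 without soleus library 2 or 3 or pectoralis major library 1. IL11RA, the receptor of IL11, was lower by 0.77 on the log2(FPKM + 1) scale, at 3.86, 6.04 and 4.03 FPKM in soleus and 6.04, 11.2 and 9 FPKM in pectoralis major, with groups that met at 6.04 FPKM. The IL11RA call (-0.77, limma adjusted p = 0.0184) was lost without soleus library 1 or 3 (0.0687 and 0.059), without pectoralis major library 2 or 3 (0.0548 and 0.0511) and with no filter (0.0606). CSF3R, the receptor of the granulocyte factor G-CSF, did not pass (0.61, limma adjusted p = 0.0605) but did with the replicate block (0.00363) and without pectoralis major library 2 (0.90, adjusted p = 0.00467), while it was 0.45 without pectoralis major library 1 (0.18) and 0.46 without soleus library 2 (0.186). STAT3, which IL6-type receptors activate, did not pass (-0.02), whereas SOCS3, its feedback inhibitor, was higher by 0.95 (limma adjusted p = 0.00185).

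The TGF-beta superfamily, whose ligands act on matrix production and growth, had 13 tested members, of which 7 were higher, 2 were lower and 4 did not pass. TGFB3 was the highest member by the mean over all libraries and in soleus, while IFNGR2 was above it in pectoralis major (30.6 against 28.6 FPKM). TGFB3 was at 53.2, 80.7 and 70.1 FPKM in soleus and 37.6, 21.5 and 26.7 FPKM in pectoralis major. The groups did not overlap, and the difference was 1.24 ± 0.22 (limma adjusted p = 0.00202). TGFB2 was higher by 0.53 (limma adjusted p = 0.00803), though not with median-ratio scaling (0.0976). TGFB1, the isoform most tied to immune control, was at 14.8 to 16.6 FPKM and 10.6 to 13.9 FPKM and did not pass (0.33, limma adjusted p = 0.0636), although it did with the replicate block (0.0472) and without pectoralis major library 3 (0.42, adjusted p = 0.0421), and was 0.24 without pectoralis major library 2 (0.173) and -0.03 with median-ratio scaling.

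The receptor TGFBR2, which binds these ligands, was at 14.7, 14.1 and 13.8 FPKM in soleus and 6.31, 6.41 and 8.81 FPKM in pectoralis major, a difference of 0.91 ± 0.15 (limma adjusted p = 0.00126) between groups well apart. TGFBR2L, listed beside it, was higher by 0.46. ACVRL1 (ALK1), a type I receptor of endothelium, was higher by 0.68 (limma adjusted p = 0.00892), but not with median-ratio scaling (0.186). All 10 endothelial markers were higher as deposited and were not counted with that scaling. A link between them and ACVRL1 was not tested. SMAD7 and SMAD6, which these receptors induce and which inhibit them, were higher by 0.62 (limma adjusted p = 0.00228) and 0.70 (limma adjusted p = 0.00818). SMAD2 and SMAD5 did not pass (0.23 and 0.06, limma adjusted p = 0.176 and 0.727), and SMAD1, SMAD3, SMAD4 and SMAD9 were under the filter.

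BMP4, a patterning and growth factor, was at 11.6, 13.2 and 17.8 FPKM in soleus and 13.4, 9.83 and 13.2 FPKM in pectoralis major, overlapped and did not pass (0.20, limma adjusted p = 0.375). The BMP4 difference was 0.04 without soleus library 3, 0.07 without pectoralis major library 2 and -0.16 with median-ratio scaling. BMP6 (0.53, limma adjusted p = 0.0338) and BMPR1A (0.42, limma adjusted p = 0.0476), a ligand and a type I receptor of this group, were called narrowly. BMP6 was lost without soleus library 1 or 3 (limma adjusted p = 0.0987 and 0.105), without pectoralis major library 2 or 3 (0.0941 and 0.0507), with median-ratio scaling (0.408) and with no filter (0.0777). BMPR1A was lost without soleus library 1 (difference 0.25, adjusted p = 0.116) or 2 (0.0581), without pectoralis major library 1, 2 or 3 (0.0758, 0.0985 and 0.102), with median-ratio scaling (0.34) and with no filter (0.116).

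GDF3, a ligand known from early embryos, was lower by 0.93 on the log2(FPKM + 1) scale, at 2.16, 1.5 and 1.86 FPKM in soleus and 4.09, 4.35 and 4.73 FPKM in pectoralis major. Its groups were well apart (limma adjusted p = 0.000694), and the call held in all 12 alternatives that tested it. AMHR2, the receptor of anti-Mullerian hormone, was also lower (-0.63, limma adjusted p = 0.0322), at 2.44 to 3.73 FPKM against 3.95 to 7.32 FPKM. That call was lost without soleus library 1 or 2 (0.054 and 0.113), without pectoralis major library 1 or 3 (0.0736 and 0.101), with mitochondrial genes left out (0.0989) and with no filter (0.0887), and AMH itself had at most 13 fragments in any library.

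The TNF superfamily had 15 tested members, of which 8 were higher, 1 was lower and 6 did not pass. TNFRSF19 (TROY), a receptor of neural and skin tissue, had the largest difference of the 72 tested members. It stood at 3.43, 3.05 and 3.49 FPKM in soleus and at 0.437, 0.316 and 0.428 FPKM in pectoralis major. The ratio of the means was 8.45, the groups were far apart and the difference was 1.63 ± 0.11 (limma adjusted p = 1.28e-05). TNFRSF19 passed the filter only through soleus, so that it had to differ. Since the gene was low in pectoralis major, the value rose to 2.80 with a pseudocount of 0.1 and to 3.08 in voom.

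The death receptor FAS was higher by 0.83 ± 0.14 (limma adjusted p = 0.00126), and the TNF receptors TNFRSF1A and TNFRSF1B by 0.66 (limma adjusted p = 0.003) and 0.56 (limma adjusted p = 0.00572). NFKBIA and REL, which TNF receptors induce through NF-kappaB, were higher by 0.66 (limma adjusted p = 0.00404) and 0.69 (limma adjusted p = 0.00318). The signalling genes went both ways. FADD, RIPK1, NFKB1, TRAF6 and TRADD were called higher (0.65, 0.50, 0.44, 0.40 and 0.32). TRAF2 and CHUK were lower by 0.70 (limma adjusted p = 0.00315) and 1.01 (limma adjusted p = 0.000548) on the same scale, and NFKB2 and IKBKB did not pass (-0.09 and -0.28). Over the whole list of genes that act downstream of cytokine receptors, 26 of 43 tested genes were higher and 2 were lower, with a median difference of 0.43. Of all genes 40.0% and 17.4% were called, and the median was 0.26. These counts are on FPKM as deposited. The list was not counted with median-ratio scaling, with which 20.6% of all genes tested were called higher.

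EDA, the ligand that forms skin appendages, was among the highest members, at 15.7, 14.5 and 14.7 FPKM in soleus and 8.95, 7.85 and 10.5 FPKM in pectoralis major, and was higher by 0.67 (limma adjusted p = 0.00351) except with median-ratio scaling (0.0745). Its receptor EDA2R was higher by 0.80 (limma adjusted p = 0.0392), at 1.96, 3.14 and 6.2 FPKM in soleus and 1.93, 1.3 and 1.46 FPKM in pectoralis major. The EDA2R groups were separated by a narrow margin, and the call was lost without soleus library 2 (0.0693) or 3 (difference 0.46, adjusted p = 0.0818), without pectoralis major library 2 or 3 (0.0962 and 0.0892), with median-ratio scaling (0.17) and with no filter (0.12). The other receptor, EDAR, had 8, 88 and 238 fragments in soleus and 0, 29 and 17 in pectoralis major and stayed under the FPKM filter.

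TNFRSF11A (RANK) and its soluble decoy TNFRSF11B (osteoprotegerin) were higher by 0.36 (limma adjusted p = 0.0207) and 0.46 (limma adjusted p = 0.0112), though neither with median-ratio scaling (0.432 and 0.28), and TNFRSF11A not without soleus library 2 or 3 (0.0607 and 0.058) or pectoralis major library 1 (0.0523). TNFRSF9 (4-1BB), a receptor that costimulates activated T cells, was the member of the superfamily that was lower, at 0.844, 0.907 and 0.87 FPKM in soleus and 1.58, 3.21 and 3.39 FPKM in pectoralis major. Its groups were apart, with a difference of -0.95 ± 0.20 (limma adjusted p = 0.0038), but TNFRSF9 passed the filter only through pectoralis major. TNFRSF21, a receptor of neurons and lymphocytes, and EDA were the highest of the superfamily and nearly equal over all libraries (12.1 and 12 FPKM), with EDA higher in soleus and TNFRSF21 in pectoralis major. TNFRSF21 had 11.5, 10.3 and 10.8 FPKM in soleus and 13.9, 12.1 and 14.1 FPKM in pectoralis major. Those groups did not overlap but the test did not pass (-0.27, limma adjusted p = 0.0888), except with median-ratio scaling (-0.63, adjusted p = 0.00331). CD40 and CD40LG, a receptor and ligand of B and T cells, did not pass (0.35 and 0.50), though CD40LG did with the replicate block (0.0235) and CD40 without pectoralis major library 3 (0.56, adjusted p = 0.03). Without pectoralis major library 1 CD40LG was at 0.18 (limma adjusted p = 0.309), and without pectoralis major library 2 CD40 was at 0.14 (0.506).

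The unannotated member LOC100857191 was lower by 1.33 on the log2(FPKM + 1) scale (SE 0.35, limma adjusted p = 0.0112), at 2.2, 0.757 and 1.19 FPKM in soleus and 9.15, 2.94 and 3.86 FPKM in pectoralis major. Its groups did not overlap, but pectoralis major library 1 was more than 2 times the next, and with no filter the call was lost (0.0536).

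The other 94 members were under the FPKM filter. With limma's voom on whole fragments, chosen after the data were seen, and a minimum of 10 fragments in 3 libraries, 128 members could be tested. In this fit 50 were higher (39.1%) and 5 lower (3.91%), against 36.0% and 13.2% of all genes. Without pectoralis major library 1, 41 were higher and 5 lower. Of the members under the FPKM filter, 56 were tested in this way. Of these 56, 9 were higher, a smaller share than the 28.6% of all genes under the filter tested in this way. Of those genes 3.84% were lower; no member was, and IL9R, the receptor of IL9, came nearest (-1.78, voom adjusted p = 0.0528). The remaining 38 were tested by neither fit, and 22 members had under 10 fragments in every library.

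The 9 genes were BMP5, CRLF2, ACVR1C, CNTFR, TNFSF13B, IL31RA, IL1RAP, CX3CR1 and IL13RA1. CRLF2 had 45, 14 and 14 fragments in soleus and 7, 2 and 0 in pectoralis major, so it passed the minimum only through soleus, where it had to differ. BMP5, a growth factor of the BMP group, had 322, 159 and 199 fragments in soleus and 17, 7 and 15 in pectoralis major. Every soleus library was far above, with a voom difference of 4.02 ± 0.66 (adjusted p = 0.00102). ACVR1C (ALK7), a type I receptor of fat tissue, had 276, 597 and 233 fragments in soleus and 45, 94 and 44 in pectoralis major. It differed by 2.47 ± 0.52 in voom (adjusted p = 0.00375). Adipocyte markers were likewise higher in soleus as deposited, 6 of 6, and a link was not tested.

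CNTFR, the chain that binds CNTF, had 803, 607 and 726 fragments in soleus and 275, 251 and 214 in pectoralis major, with no overlap. Its voom difference was 1.45 ± 0.20 (adjusted p = 0.000418), so that the ligand CNTF and the receptor chains CNTFR, LIFR and IL6ST were each called higher in at least 1 fit. The Schwann cell markers, 5 of 5, were higher too as deposited, and a link was not tested. The other ligands LIF and CLCF1 did not pass in voom (1.04 and 1.32, adjusted p = 0.133 and 0.0796). CX3CR1, the receptor of CX3CL1 on macrophages, had 126, 192 and 159 fragments against 52, 65 and 108, and its voom call (1.05, adjusted p = 0.0282) was lost without pectoralis major library 1 (adjusted p = 0.0934), as was that of IL13RA1, a chain shared by IL4 and IL13 (1.00, adjusted p = 0.0182, then 0.0623).

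**Figure D4:**
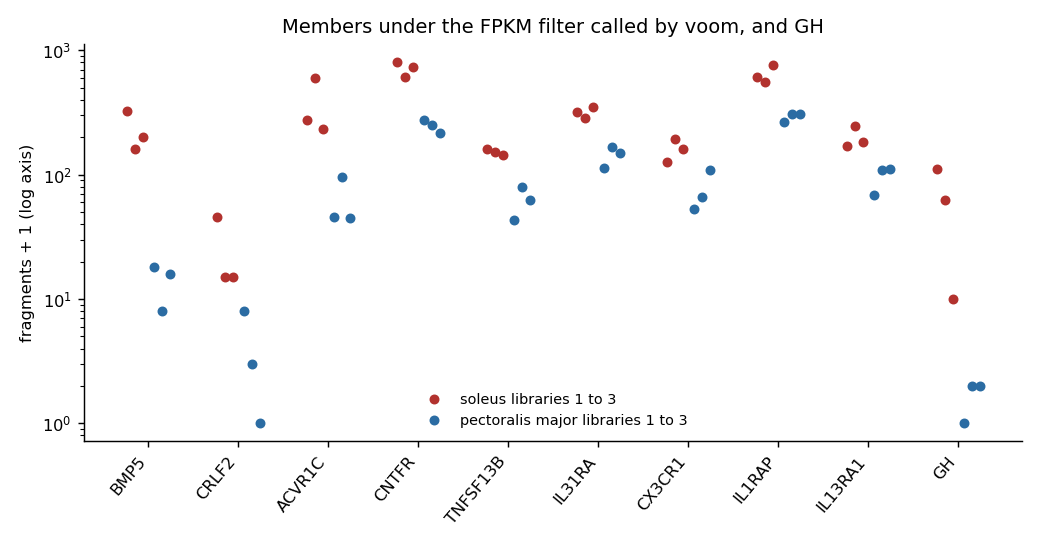
Fragments plus 1 in each library, on a log axis, are shown for the 9 members under the FPKM filter that voom called higher in soleus, and for GH, which was not tested. Soleus libraries (red) lie above pectoralis major libraries (blue) in each; BMP5 has 159 to 322 fragments against 7 to 17, and GH 9 to 109 against 0 to 1.

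A hand-made list, which does not hold every known pair, had 37 ligand and receptor pairs with both genes in the table, counting CSF1R as a receptor, and 13 had both tested. In 4 of these both were higher: IL34 with CSF1R, CSF1 with CSF1R, TGFB2 with TGFBR2 and TGFB3 with TGFBR2. These pairs share the receptors CSF1R and TGFBR2. Of all tested members, 15 of 24 ligands and 24 of 47 receptors were higher. Whether the 2 genes of a pair were higher together more often than unpaired genes was not tested. CSF1 and TGFB2 were not called with median-ratio scaling (limma adjusted p = 0.212 and 0.0976). EDA and EDA2R, described above as higher, are a pair outside the list and are not in these counts. In another 11 the receptor was tested and the ligand was under the filter, among them GH with GHR, IFNG with IFNGR1 and FASLG with FAS. FASLG, the ligand that triggers FAS, was at 0.832 FPKM in soleus and 0.568 FPKM in pectoralis major and did not pass in voom (0.70, adjusted p = 0.249).

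Some members of B cells and lymphoid tissue were highest in pectoralis major library 1, and they are described here because of those values. CXCL13, the chemokine that draws B cells into follicles, had 6, 0 and 1 fragments in soleus and 56, 2 and 13 in pectoralis major, and its receptor CXCR5 had 10, 1 and 6 against 42, 1 and 9. The related copies CXCL13L2 and CXCL13L3 had 24 and 22 fragments in pectoralis major library 1 and at most 6 in any other library. CCR7 and its ligand CCL19, which gather lymphocytes in lymphoid tissue, had 126 and 69 fragments there, but the muscles overlapped.

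Other lymphocyte members went both ways in pectoralis major library 1, and those named here were picked by their values. CD40LG had 20 fragments there against 74 and 78 in libraries 2 and 3, FASLG 16 against 41 and 56, and IL2RB 184 against 212 and 371. CCL5 had 82 against 85 and 165, close to library 2. In contrast, IL21R had 91 fragments in library 1 against 29 and 61, and IL2RA 184 against 112 and 133. TNFRSF18 had 77 against 32 and 59, and TNFRSF4 56 against 29 and 16. The B-cell markers also differed among themselves. PAX5 had 45 fragments in pectoralis major library 1 against at most 19 in any other library, CD79B had 86 there against at most 64, and BTK, a kinase of B cells and also of myeloid cells, had 184 there, the fewest of the 6 libraries, and was called higher in soleus (0.62, limma adjusted p = 0.00386).

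TNFRSF13C, the receptor of the B-cell survival factor BAFF, had 1, 2 and 4 fragments in soleus and 29, 8 and 13 in pectoralis major, with no overlap, and was not tested. BAFF itself, TNFSF13B, was among the genes that voom called higher in soleus (1.27, adjusted p = 0.00832). Library 1 of pectoralis major was at least 2 times the next library of its muscle for 13 of 144 members, against 5 each for libraries 2 and 3. Soleus library 1 was so for 10 members, CXCL13 and its 2 copies among them, against 3 and 7 for soleus libraries 2 and 3. These counts were not made over all genes, so it is not known whether members differ in this from other genes. The part of B cells in these values was not tested.

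**Figure D5:**
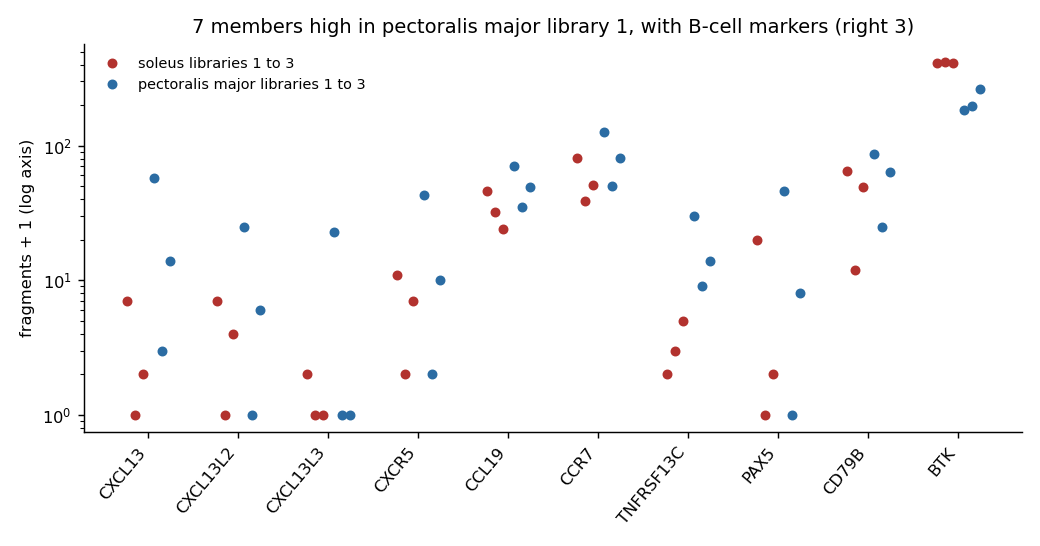
Fragments plus 1 in each library, on a log axis, are shown for 7 members picked for their high values in pectoralis major library 1 and, at the right, 3 B-cell markers, soleus in red and pectoralis major in blue. The leftmost blue point of each gene is pectoralis major library 1; it has 56 fragments of CXCL13 and 45 of PAX5, the most of the 6 libraries, but 184 of BTK, the fewest.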

How the data were processed

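RNA of soleus and pectoralis major was sequenced in 3 libraries each. Per the submitters' processing notes, the tools were HISAT2, HTSeq, Cufflinks and R 3.2.0 and the build was GRCg6a; their roles, other versions and the strand setting are not stated there. The authors deposited FPKM in 1 table of 18239 genes, per the file headers. Each value above 0 was a whole multiple of what 1 fragment is worth, for 100% of 94897 values within a tolerance of 1e-06, which gave the fragments and library totals. No coordinates or sequences are given.

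All genes with at least 1 FPKM in 3 of the 6 libraries were fitted with limma 3.58.1 in R 4.3.3 (variance trend, two-sided) on log2(FPKM + 1), with Benjamini-Hochberg adjustment. Means are ± SD, n = 3. Tables and figures were made in Python 3.11.15 (pandas 2.3.3, numpy 2.4.6, matplotlib 3.10.9). The fits were tested on simulated data in which few genes changed, all of them well covered, and no shift in scaling was set. That test therefore does not bear on the choice of scaling or on differences of low genes. The table was annotated with symbols, pathway and gene terms by the authors. Families, roles, pairs and marker lists were set by hand, and members and lists were chosen with earlier results of these data known. Per-library values are given for members called with at least a 2-fold difference on the log2(FPKM + 1) scale and for the highest of each family. Some others were picked after their values were seen. Members with close copies, such as CCR2, CCL4 and LOC395551 or the CXCL13 copies, are uncertain, as is any gene with an antisense partner. Some genes are included in the counts but not reported here by name.

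Samples with the same number deviated together (correlations of their deviations from the muscle means 0.398, 0.445 and 0.367). Correlations of the other pairs were below 0, but deviations from a mean of 3 libraries cancel, so those values add no separate support. The labels do not state a pairing, so the main fit left the number out and the replicate block was fitted as an alternative. The other alternatives were median-ratio scaling, leaving out mitochondrially encoded genes, a pseudocount of 0.1, no filter, a mean of at least 5 FPKM, voom on whole fragments and leaving out each library.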

Additional observations from a re-analysis of the deposited data

How the results depend on the processing

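Of the 45 called members, 27 kept the call in every alternative that tested them and 18 lost it in at least 1, of which 15 lost it with median-ratio scaling and 11 without 1 library; none reversed. Members called higher numbered 21 with median-ratio scaling and 15 with a mean of at least 5 FPKM, a filter that leaves 26 members, and ranged from 33 to 38 without 1 library. Members called lower numbered 10 and 2 in these fits and 4 to 5 without 1 library. The median difference was 0.20 with median-ratio scaling, 0.67 without mitochondrial genes, 0.70 with a pseudocount of 0.1, 0.15 with no filter, 0.65 with a mean of at least 5 FPKM, 0.71 in voom and 0.44 to 0.50 without 1 library. Over all genes, 1956 were higher and 2853 lower with median-ratio scaling, and 1639 higher with a mean of at least 5 FPKM; the cause was not tested beyond the smaller number of genes in the last. With the replicate block 45 members were higher and 6 lower; the 6 it added are CXCR4, IL17RA, CSF3R, TGFB1, CCL4 and CD40LG, and it ended no call. In all, 17 members that did not pass were called in at least 1 alternative. Depth limits the members with under 10 fragments, for which a difference was not detectable.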
